A study of Mus musculus with 20 samples.

Results

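Immediate early genes were followed through the thoracic aorta of C57BL/6J mice, the inbred laboratory strain. The 10 were Fos, Fosb, Jun, Junb, Egr1, Egr2, Atf3, Ier2, Nr4a1 and Dusp1. Their rows were found by matching the Ensembl identifiers of the count table to these symbols, with no threshold on a measured value. All 10 matched a row among the 54532 genes of the table, and all 10 passed the filter on low counts that left 15543 genes to be tested. The 20 RNA-seq libraries formed 4 groups of 5, namely descending aorta with BAPN, descending aorta with water, ascending aorta with BAPN and ascending aorta with water. Every mouse received BAPN or water for 1 week, and no allele or other agent was named for any group. BAPN, beta-aminopropionitrile, is an irreversible inhibitor of lysyl oxidase, the enzyme that crosslinks elastin and collagen in the arterial wall. Age and sex were not given in the sources used here, nor was it said whether a library came from its own animal, so each p-value measures the spread between libraries only. Within each group the libraries were numbered 1 to 5, and what a number marks was not stated.

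Immediate early genes are transcribed within minutes of a stimulus, without the need for new protein synthesis, and most of their transcripts decay quickly. Their promoters are held ready by serum response factor with its ternary complex partners and by CREB, which act downstream of MAP kinases, calcium and cyclic AMP. Fos, Fosb, Jun and Junb encode subunits of the dimeric AP-1 transcription factors, and Atf3 encodes a stress-induced relative that can pair with Jun proteins. Egr1 and Egr2 encode zinc finger transcription factors, Nr4a1 an orphan nuclear receptor and Ier2 a small nuclear protein. Dusp1 encodes a phosphatase that switches MAP kinases off again. In aortic tissue these genes are known to respond to stretch, shear and injury, and also to the handling and enzymatic or mechanical stress of dissection.

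Total counts per library ranged from 15744725 to 23292294. Smooth muscle is the main cell of the aortic media. In descending aorta its summed markers stood at 22338 to 24801 CPM (counts scaled to library size) with BAPN and 18755 to 21335 CPM with water. In ascending aorta they stood at 21842 to 24241 CPM with BAPN and 18722 to 20653 CPM with water. The part of this difference in the BAPN comparisons was not tested. Heart markers, 8 cardiomyocyte genes, summed to 67.8 to 83.1 CPM in descending and 424 to 1190 CPM in ascending samples. A group of 33 pseudogenes divided the 20 libraries into a higher and a lower set of 10 each, in a way the labels do not name. The higher set held all 5 ascending BAPN libraries, ascending water libraries 4 and 5 and descending water libraries 1, 2 and 5. The lower set held all 5 descending BAPN libraries, descending water libraries 3 and 4 and ascending water libraries 1, 2 and 3. Under BAPN, therefore, the region and the pseudogene set cannot be told apart. Within each region, BAPN and water libraries were also spread unevenly over the sets, in opposite directions for ascending and descending aorta.

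The promoters of 5 members are shown because the results below turn on these genes. Nr4a1, Junb and Fos had the closest agreement between same-numbered libraries, Dusp1 was the most abundant member, and Egr2 differed between the regions. Sequences are those of RefSeq on GRCm38.p6 and run 5′ to 3′ on the strand of the gene, up to the base before the start of transcription. The Dusp1 stretch was ended at base -48, since an exon of another transcript begins there. Capitals mark matches, on either strand, to TGACG, the core of the cyclic AMP response element, which reads CGTCA where it lies on the other strand, to that whole element, TGACGTCA, and to the CArG box bound by serum response factor.
Nr4a1, chr15:101266596-101266845, plus strand: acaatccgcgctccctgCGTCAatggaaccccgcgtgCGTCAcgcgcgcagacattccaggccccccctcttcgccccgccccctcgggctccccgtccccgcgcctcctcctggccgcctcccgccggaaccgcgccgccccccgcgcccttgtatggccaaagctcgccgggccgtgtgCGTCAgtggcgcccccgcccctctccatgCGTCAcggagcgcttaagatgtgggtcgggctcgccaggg
Junb, chr8:84978749-84978998, minus strand: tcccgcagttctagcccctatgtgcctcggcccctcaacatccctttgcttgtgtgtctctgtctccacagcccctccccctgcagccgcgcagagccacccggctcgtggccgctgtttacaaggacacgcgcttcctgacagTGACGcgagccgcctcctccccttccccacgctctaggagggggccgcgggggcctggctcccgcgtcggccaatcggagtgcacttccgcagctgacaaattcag
Fos, chr12:85473640-85473889, plus strand: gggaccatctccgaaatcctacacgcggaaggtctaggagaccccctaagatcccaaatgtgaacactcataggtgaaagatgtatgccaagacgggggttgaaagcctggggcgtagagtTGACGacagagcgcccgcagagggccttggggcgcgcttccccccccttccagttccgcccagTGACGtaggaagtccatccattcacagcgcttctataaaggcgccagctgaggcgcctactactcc
Dusp1, chr17:26508520-26508722, minus strand: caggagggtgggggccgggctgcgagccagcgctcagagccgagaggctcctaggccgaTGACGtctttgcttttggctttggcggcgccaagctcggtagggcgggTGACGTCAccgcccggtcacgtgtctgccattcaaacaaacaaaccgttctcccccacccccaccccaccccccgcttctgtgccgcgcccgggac
Egr2, chr10:67537619-67537868, plus strand: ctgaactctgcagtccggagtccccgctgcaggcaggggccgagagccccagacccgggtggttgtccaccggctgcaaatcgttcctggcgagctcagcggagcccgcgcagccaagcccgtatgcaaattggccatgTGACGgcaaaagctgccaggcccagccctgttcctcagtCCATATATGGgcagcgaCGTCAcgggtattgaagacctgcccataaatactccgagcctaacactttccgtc

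RefSeq promoter windows were at hand for 8 of the 10 members. TGACG lay in the 250 bases before the start in 7 of these 8 (Atf3, Dusp1, Egr2, Fos, Fosb, Junb and Nr4a1), against 19.8% of the 27025 genes of the same table. TGACGTCA was found in Dusp1 alone among the 8 and in 1.77% of all genes, and overlaps the TGACG count. The CArG box was found in Egr2 alone among the 8 and in 1.62% of all genes. The heat shock element GAANNTTC was found in Jun alone among the 8 and in 7.73% of all genes, while the AP-1 motif TGANTCA was in none of the 8 and in 7.82% of all genes. These are matches of letters in a short window and say nothing of occupancy.

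Measured per kilobase of exon, Dusp1 was the most abundant member at 107.2 CPM per kb averaged over the 20 libraries, and Jun followed at 73.6 CPM per kb. Ier2, Fos, Atf3, Egr1, Nr4a1 and Junb lay close together at levels of 20.7 to 33.9 CPM per kb. Fosb stood at 3.98 CPM per kb and Egr2 at 0.748 CPM per kb. The members with intermediate levels changed places from library to library, since single libraries differed by up to 6.94-fold in Atf3, 4.08-fold in Junb and 3.97-fold in Fos. Egr2, a low-count gene, rested on 17 to 100 counts per library, so its values carry more counting error than the rest. Junb shares 173 exonic bases with Prdx2 on the opposite strand, Jun shares 232 with its antisense transcript Junos and Dusp1 shares 11 with Ergic1; the strand setting of the counting is not given in the sources used here. The coordinates on GRCm38 are 12:85473890-85477273 for Fos, 7:19302696-19310051 for Fosb, 4:95049034-95052222 for Jun, 8:84974484-84978718 for Junb and 18:34859823-34864984 for Egr1. They are 10:67535475-67542188 for Egr2, 1:191170296-191218039 for Atf3, 8:84661331-84662852 for Ier2, 15:101254269-101274795 for Nr4a1 and 17:26505590-26562128 for Dusp1.

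**Figure D1:**
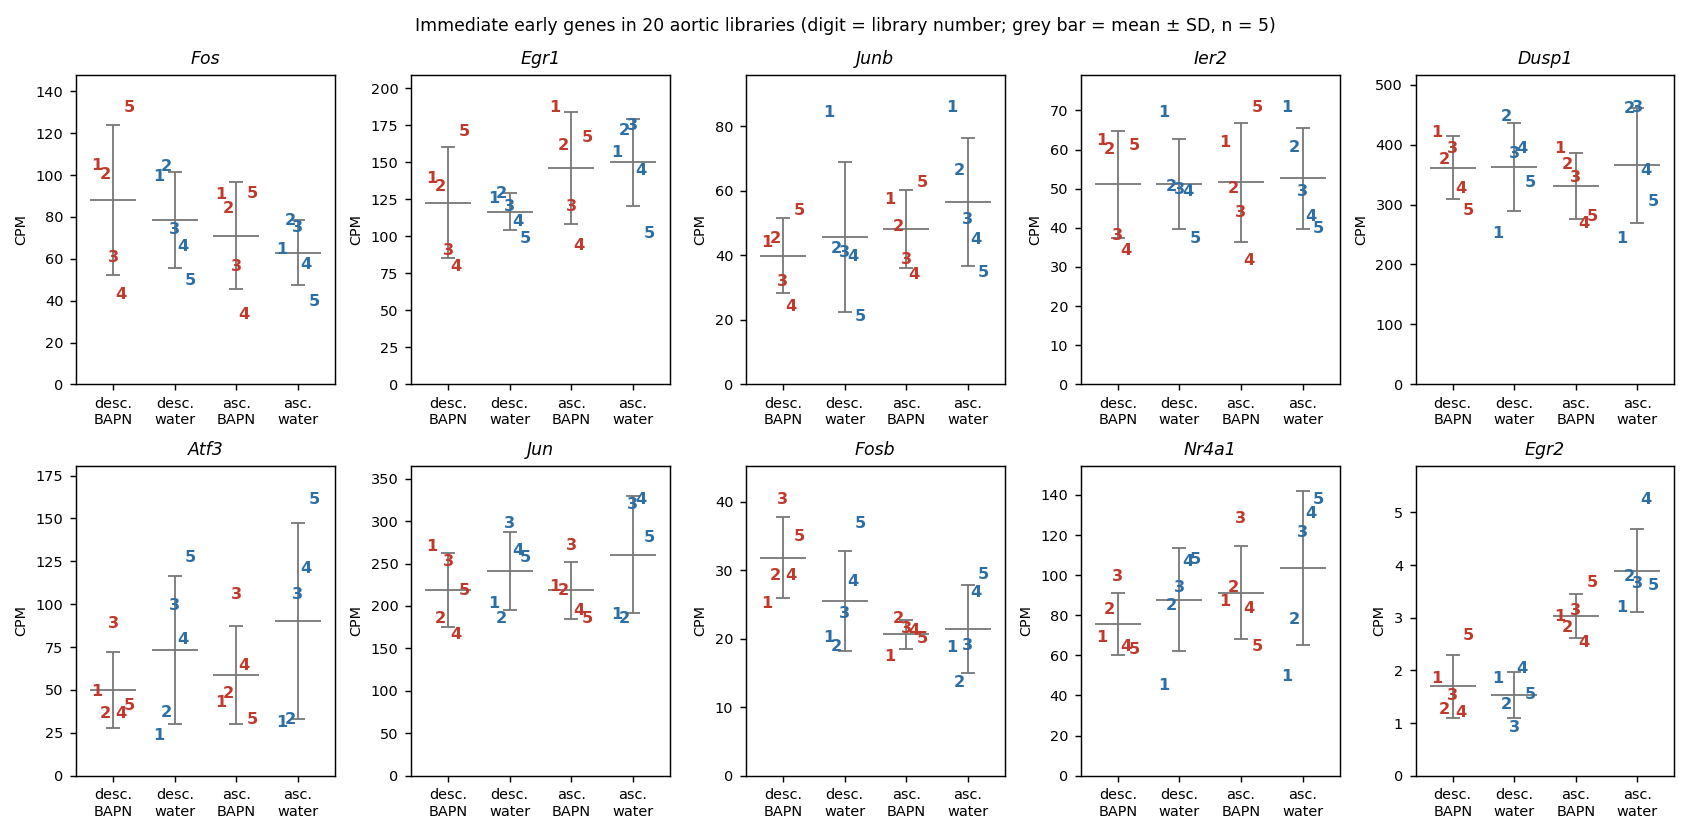
Level of each member (CPM, y axis from 0) in the descending BAPN, descending water, ascending BAPN and ascending water libraries (x axis), where a digit is the library number and the grey bar the mean ± SD of 5 libraries. The groups overlap for most members, while Egr2 lies higher in ascending libraries and the same digits tend to stand high or low in both regions, as in Atf3, Junb and Nr4a1.

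The question the treatment poses, what 1 week of BAPN does to each region, gave no call among the members. In the ascending aorta 0 of 10 members passed edgeR's quasi-likelihood test at an adjusted p of 0.05, where 6.34% of all genes tested did. In the descending aorta 0 of 10 passed, against 10.7% of all genes. DESeq2 and limma-voom also called 0 members in both regions, and at an unadjusted p under 0.05 edgeR and DESeq2 counted 0 members in either region, while limma-voom counted 1 (Fosb) in the descending and 0 in the ascending aorta. The BAPN and water libraries overlapped for all 10 members in both regions. This is a description only, since overlap was not counted over all genes.

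The estimates were most precise for Dusp1, the MAP kinase phosphatase. It averaged 361 ± 52.5 CPM with BAPN and 363 ± 73.5 CPM with water in the descending aorta (SD, n = 5 each), a log2 difference of -0.01 with a 95% interval of -0.32 to 0.31. In the ascending aorta it averaged 331 ± 54.7 CPM with BAPN and 365 ± 95.7 CPM with water, and the interval ran from -0.46 to 0.17. The same estimate was least precise for Atf3. Its log2 difference was -0.54 in the descending aorta (95% interval -1.43 to 0.34) and -0.62 in the ascending aorta (95% interval -1.49 to 0.26), reaching down to 0.371 and 0.356 of the water level. For Fos the intervals were -0.38 to 0.71 in the descending and -0.38 to 0.73 in the ascending aorta. Fosb in the descending aorta came nearest to a difference, at 31.8 ± 5.91 CPM with BAPN and 25.5 ± 7.28 CPM with water, a log2 difference of 0.32 (SE 0.17, edgeR adjusted p = 0.275). The BAPN effect was also set against itself between the regions. The difference of effects was called for 0 of 10 members and for 0.0% of the genes tested by edgeR, with 0 members and 1070 genes at an unadjusted p under 0.05; DESeq2 called 14 genes and limma-voom 0, none of them a member.

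Between the regions, Egr2 was lower in the descending aorta under both treatments. With water, its levels were 1.84, 1.35, 0.913, 2.04 and 1.53 CPM in descending libraries 1 to 5, against 3.19, 3.78, 3.65, 5.25 and 3.61 CPM in ascending libraries 1 to 5. Every descending library lay below every ascending one. The means were 1.54 ± 0.438 CPM in descending and 3.89 ± 0.791 CPM in ascending aorta (SD, n = 5 each), 2.52-fold lower, with a log2 difference of -1.33 (SE 0.22, edgeR adjusted p = 2.63e-05). With BAPN, its levels were 1.85, 1.252, 1.52, 1.21 and 2.67 CPM in descending libraries, against 3.02, 2.81, 3.13, 2.54 and 3.67 CPM in ascending libraries. Here the groups overlapped, since descending library 5 lay above ascending library 4. The means were 1.699 ± 0.598 CPM in descending and 3.04 ± 0.422 CPM in ascending aorta, a log2 difference of -0.82 (SE 0.22, edgeR adjusted p = 0.00556). Egr2 was lower in the descending library of all 10 same-numbered pairs. For the 5 water pairs this follows from the groups not overlapping, whatever the pairing. Within the pseudogene sets the water difference was -1.48 in the higher set (edgeR adjusted p = 0.000415) and -1.26 in the lower set (edgeR adjusted p = 0.0280). With the set as a term in the model, the BAPN difference was -0.58 and was no longer called (edgeR adjusted p = 0.231). Under BAPN the region and the set coincide, so that term was estimated from the water libraries alone. It cannot decide the BAPN difference.

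Egr2 is best known as the master regulator of myelination in Schwann cells, and markers of that cell type moved with the region. Over 6 Schwann cell genes the summed level was 12.8 to 18.1 CPM in descending BAPN, 14.7 to 18.1 CPM in descending water, 23.6 to 29.96 CPM in ascending BAPN and 28.6 to 31.9 CPM in ascending water libraries. Among these markers Pmp2 was at 0 in all 4 groups. Across the 20 libraries, as deviations from the group means, the sum had r = -0.28 with Egr2. The summed level of 6 fibroblast genes likewise lay at 2187 to 2694 CPM in descending and 3680 to 4086 CPM in ascending libraries. Over 5 mesothelium genes it lay at 0.762 to 12.2 CPM in descending and 206 to 374 CPM in ascending libraries, and over 6 cartilage genes at 37.0 to 50.1 CPM in descending and 84.6 to 136 CPM in ascending libraries. The part of these cells in the Egr2 difference was not tested, and in whole tissue fewer cells of a type and less RNA per cell cannot be told apart.

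Fosb, the AP-1 subunit, was higher in the descending aorta under BAPN. Its levels were 25.2, 29.2, 40.4, 29.3 and 34.8 CPM in descending BAPN libraries 1 to 5, against 17.4, 22.9, 21.5, 21.2 and 19.97 CPM in ascending BAPN libraries. The groups did not overlap. The means were 31.8 ± 5.91 CPM in descending and 20.6 ± 2.08 CPM in ascending aorta (SD, n = 5 each), a log2 difference of 0.63 (SE 0.18, edgeR adjusted p = 0.00747). With the pseudogene set as a term it was 0.96 (edgeR adjusted p = 0.00439). That term again rests on the water libraries alone, so the value cannot decide the BAPN difference. With water the same difference was 0.25 (SE 0.18, edgeR adjusted p = 0.331), at 25.5 ± 7.28 CPM in descending and 21.5 ± 6.44 CPM in ascending aorta. The difference between these regional contrasts is the difference of the BAPN effects, 0.38 with a 95% interval of -0.13 to 0.89, and was not called. Fosb was higher in the descending library of all 10 same-numbered pairs. For the 5 BAPN pairs this follows from the groups not overlapping, whatever the pairing. Such directions were not counted over all genes. Endothelial markers also stood higher, at 1207 to 1463 CPM in descending BAPN and 931 to 1141 CPM in ascending BAPN libraries over 7 genes. As deviations over the 20 libraries their sum had r = 0.28 with Fosb. Adipocyte markers were higher too, with medians of 91.2 and 27.6 CPM (brown) and 278 and 185 CPM (white) in descending and ascending BAPN libraries. Their r with Fosb was -0.05 and 0.04. Several other lists, fibroblast and mesothelium among them, lay lower in descending aorta. The part of these cells was not tested.

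In all, 2 of 10 members differed between the regions with BAPN, 1 higher in descending aorta (14.2% of all genes) and 1 lower (15.6% of all genes), against 29.8% in either direction. With water 1 of 10 differed, in the lower direction, against 27.3% of all genes in either direction and 15.2% in that direction. These counts were not tested against the background, and they depended on the model. With the library number within treatment as a block, 6 of 10 members were called in each treatment. That fit called 29.6% of all genes with water and 31.6% with BAPN. In the fit without a block, the median log2 difference of the 10 was -0.12 with BAPN and -0.18 with water, beside 0.01 over all genes in each.

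Of the 8 members that were not called, some had mostly the same direction across the same-numbered pairs and others did not. These directions were not counted over all genes, so they are a description only. Junb was lower in the descending library of 10 of 10 pairs, and Egr1 and Nr4a1 in 9 of 10. Fos was higher in the descending library of 9 of 10 pairs and Dusp1 of 8 of 10. Ier2 was split 5 to 5, and Atf3 and Jun were higher in 3 of 10. For Egr1, the growth-responsive zinc finger factor, the means with water were 117 ± 12.5 CPM in descending and 150 ± 29.4 CPM in ascending aorta (SD, n = 5 each), a log2 difference of -0.36 that missed the threshold (SE 0.18, edgeR adjusted p = 0.144). Without ascending water library 5 it was -0.47 and was called (edgeR adjusted p = 0.0492). Within the higher pseudogene set, with water, Jun at -0.50 (edgeR adjusted p = 0.0159) and Nr4a1 at -0.77 (edgeR adjusted p = 0.0478) were called lower in descending aorta. In the lower set Fosb was called higher at 0.60 (edgeR adjusted p = 0.0290). In the higher set Fosb had the opposite sign, at -0.16, and was not called (edgeR adjusted p = 0.650). These comparisons set libraries of different numbers against each other, descending 1, 2 and 5 against ascending 4 and 5 in the higher set, and descending 3 and 4 against ascending 1, 2 and 3 in the lower. With water, libraries 1 and 2 had the lowest values of Jun, Fosb and Nr4a1 in both regions, so the number and the region cannot be told apart within a set.

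**Figure D2:**
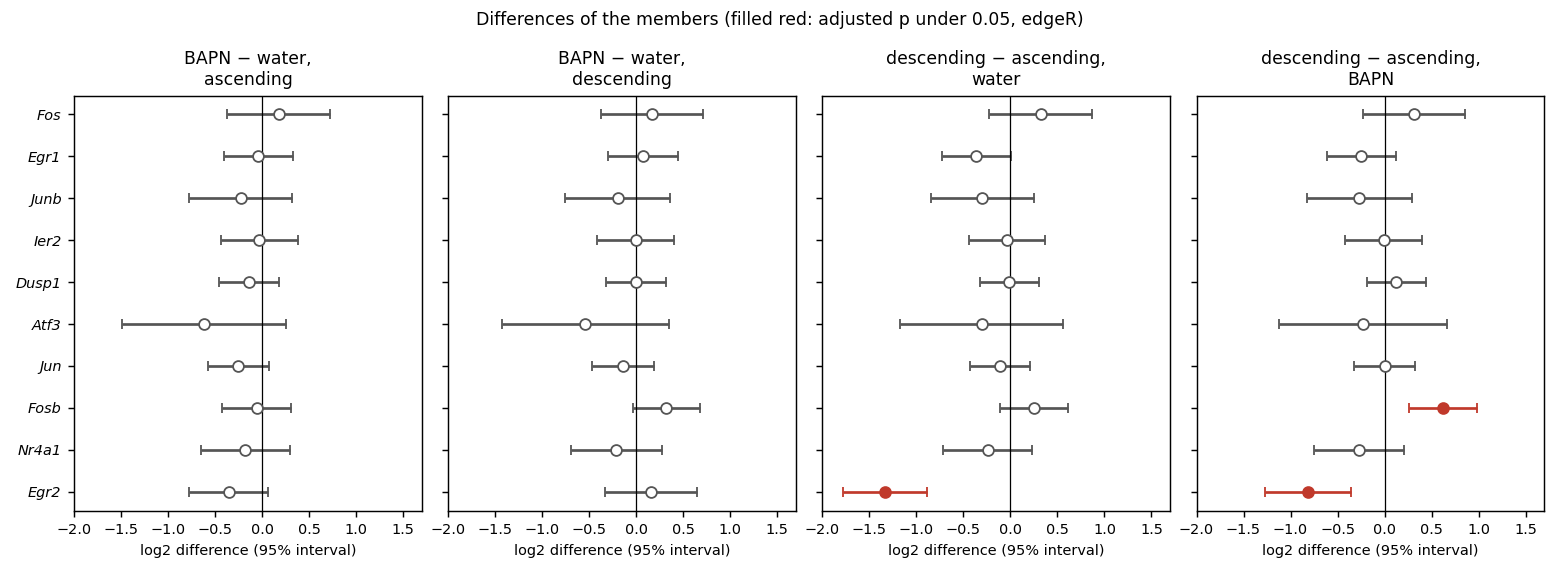
Log2 difference of each member (x axis) with its 95% interval in 4 comparisons, the group named first in a title standing over the other; filled red points passed an adjusted p of 0.05. No member is filled in the BAPN panels, Egr2 is filled at -1.33 and -0.82 in the regional panels, and Fosb is filled at 0.63 under BAPN.

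The genes around the members were read from lists of the same pathway. Their calls come from the fit without a term for the pseudogene set. Since BAPN and water libraries were spread unevenly over the sets, the part of the set in the BAPN calls of these lists was not tested. Of 41 other immediate early genes tested, 5 rose and 1 fell with BAPN in the descending aorta, where 6.18% of all genes rose and 4.54% fell. In the ascending aorta 2 rose and 0 fell, where 3.44% of all genes rose and 2.91% fell. Ier5, a heat shock factor 1 cofactor, and Pim1, a serine/threonine kinase, rose in both regions. Ier5 averaged 63.1 ± 9.90 CPM with BAPN and 34.0 ± 5.34 CPM with water in descending aorta (SD, n = 5 each; log2 difference 0.89, edgeR adjusted p = 2.76e-06). In ascending aorta Ier5 averaged 52.1 ± 2.88 CPM with BAPN and 36.2 ± 4.99 CPM with water (0.52, edgeR adjusted p = 0.00219). Pim1 averaged 23.1 ± 2.92 CPM with BAPN and 13.6 ± 4.66 CPM with water in descending aorta (0.76, edgeR adjusted p = 0.00696), and 18.3 ± 3.94 and 11.3 ± 2.56 CPM in ascending aorta (0.70, edgeR adjusted p = 0.0210). Myc, Zfp36l1 and Maff also rose in the descending aorta, and Egr3, a relative of Egr2, fell there by 0.44 on the log2 scale (edgeR adjusted p = 0.0275).

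Spry1 had the smallest p-value with BAPN in both regions among the 16 genes listed as ERK feedback genes. The list held Phlda1, phosphatases of the Dusp family, and Sprouty and Spred proteins, which restrain the ERK pathway. It also held ETS factors, which carry out the transcriptional response to ERK. Spry1 averaged 30.5 ± 1.10 CPM with BAPN and 17.7 ± 1.83 CPM with water in descending aorta (log2 difference 0.78, edgeR adjusted p = 1.28e-07). In ascending aorta it averaged 48.4 ± 3.81 CPM with BAPN and 33.9 ± 2.99 CPM with water (0.51, edgeR adjusted p = 2.21e-05). In all, 3 of the 16 rose and 1 fell with BAPN in descending aorta, and 1 rose and 0 fell in ascending aorta. Over all genes 6.18% rose and 4.54% fell in descending aorta, and 3.44% rose and 2.91% fell in ascending aorta. The lists that follow have the same background, and no list was tested against it. Of 15 kinases of the MAP kinase cascades, 2 rose and 1 fell in descending and 1 rose and 1 fell in ascending aorta. Those that rose were kinases that MAP kinases activate, Rps6ka3 in both regions and Mapkapk2 in descending aorta, and Map2k6, an activator of p38, fell in each. Of 15 heat shock genes 1 (Hsph1) rose in each region and 0 fell. Of 10 genes of serum response factor and its partners, Mrtfa alone rose in descending aorta (0.25, edgeR adjusted p = 0.00319) and 0 were called in ascending aorta. Of 13 other AP-1 and CREB/ATF partners, 2 rose and 1 fell in descending and 1 rose and 1 fell in ascending aorta, with Mafk rising and Atf5 falling in each.

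Between the regions, many ERK feedback genes were lower in the descending aorta. With water, 1 of the 16 was higher and 11 were lower, with a median log2 difference of -0.39 beside 0.01 over all genes, of which 12.1% were higher and 15.2% lower. With BAPN, 1 was higher and 8 were lower, with a median of -0.29, where 14.2% of all genes were higher and 15.6% lower. Etv5, an ETS factor, averaged 6.77 ± 0.577 CPM in descending and 14.97 ± 0.785 CPM in ascending aorta with water (log2 difference -1.14, edgeR adjusted p = 1.26e-09). Dusp14 was the one higher in descending aorta in each treatment, by 0.68 with water (edgeR adjusted p = 3.30e-05) and by 0.67 with BAPN (edgeR adjusted p = 9.61e-05). Among the 41 other immediate early genes, 2 were higher and 11 lower in descending aorta with water, and 7 higher and 8 lower with BAPN. Egr3 was lower in descending aorta, with a log2 difference of -0.77 with water (edgeR adjusted p = 1.20e-05) and of -0.84 with BAPN (edgeR adjusted p = 7.74e-06). Of the 2 EGR corepressors, Nab1 was lower under both treatments and Nab2 was not called.

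The members had a wide spread between libraries of a group compared with all genes. The biological coefficient of variation estimated by edgeR, a measure of spread beyond counting error, was 46.0% for Atf3, higher than in 99.1% of the genes tested. It was 29.2% for Junb, 29.0% for Fos and 25.2% for Nr4a1. The remaining 6 lay between 17.0% (Dusp1) and 21.5% (Ier2). The median over all genes tested was 8.41%. For 9 members the trend at the same abundance was 6.83% to 8.55%, and Egr2 alone sat on its trend, at 18.3% against 18.2%. Such spread was not peculiar to the members: for BAPN in ascending aorta the SE of the log2 difference was 0.44 for Hspa1b and 0.42 for Hspa1a, the same size as that of Atf3, 0.42.

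Atf3 shows what this spread looks like. With water, Atf3 was at 23.2, 36.8, 99.2, 79.6 and 127 CPM in descending libraries 1 to 5, and at 30.7, 33.0, 105, 121 and 161 CPM in ascending libraries 1 to 5. Libraries 1 and 2 were low and libraries 3, 4 and 5 high in both regions, a ratio of highest to lowest of 5.48 in descending and 5.25 in ascending aorta. With BAPN it was at 49.3, 36.4, 88.7, 36.0 and 40.8 CPM in descending and at 42.8, 48.1, 105, 64.2 and 33.0 CPM in ascending libraries. Library 3 was the highest in both. The pseudogene sets divide the water libraries otherwise, with ascending 4 and 5 in the higher set and descending 1, 2 and 5 in it.

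Nr4a1 and Junb repeated the picture with their own orders. Nr4a1 was at 44.99, 84.6, 94.0, 107 and 108 CPM in descending water libraries 1 to 5, and at 49.2, 78.0, 121, 131 and 138 CPM in ascending water libraries. Junb was at 84.3, 42.1, 40.8, 39.7 and 21.0 CPM in descending water libraries, and at 85.8, 66.3, 51.3, 44.8 and 34.6 CPM in ascending water libraries. Library 1 was thus the lowest for Nr4a1 and the highest for Junb in both regions. Fos, in the BAPN groups, was at 104, 100, 60.4, 43.1 and 132 CPM in descending and at 90.5, 84.1, 56.4, 33.3 and 91.3 CPM in ascending libraries 1 to 5. Library 4 was the lowest and library 5 the highest in each region.

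This agreement by number was tested for every gene, as the correlation across the 10 same-numbered pairs of the deviation from the group mean (log2 CPM) in descending and in ascending libraries, against all pairings of the numbers within each treatment. Nr4a1 had r = 0.95 with an exact permutation p = 6.9e-05, the smallest these pairings allow, and rho = 0.96 with the same p. Junb had r = 0.94 (two-sided exact permutation p = 0.000208) and rho = 0.95 (p = 0.000347). Fos had r = 0.93 (exact permutation p = 0.00174) and rho = 0.90 (p = 0.00104). Dusp1, Atf3, Ier2, Egr1, Fosb and Jun had r between 0.78 and 0.91 and rho between 0.75 and 0.94, with exact permutation p-values of 0.000208 to 0.0164 for r and 0.000417 to 0.0163 for rho. Egr2 had r = 0.60 (exact permutation p = 0.0908) and rho = 0.49 (p = 0.182).

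Thus 9 of 10 members had an unadjusted exact p under 0.05, against 7.8% of the genes tested, and the median r was 0.89 over the members and 0.10 over all genes. After Benjamini-Hochberg adjustment over the 15543 genes no gene passed 0.05, the members included, whose adjusted exact permutation p ran from 0.144 to 0.719 for r and from 0.216 to 0.887 for rho. The smallest exact permutation p these pairings allow is 6.9e-05. Over this many genes, a gene at that limit could pass only if many others came close to it, so this adjustment had little power. At an unadjusted exact p under 0.05, 1213 genes passed with r and 1028 with rho. Without the 2 pairs farthest from the median in the ascending aorta, r stayed between 0.61 and 0.90 for the 9 members, while for Egr2 it was -0.01, so that its relation rested on those pairs. Within treatments, over 5 pairs each, Atf3 had r = 0.70 with BAPN and 0.97 with water, Fosb 0.46 and 0.93, and Egr2 0.93 and 0.36. With deviations taken within group and pseudogene set, r was 0.34 to 0.86 over the 10 members, lowest for Fosb and Jun.

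The spread between libraries was correspondingly smaller once a descending library was set against the ascending library of its number. For Nr4a1 the SD within groups was 0.47 on the log2 scale, and the SD of the same-number difference within treatments was 0.18. For Fos these SDs were 0.54 and 0.21, and for Atf3 0.87 and 0.39. The difference of 2 unrelated libraries would have a larger SD than either library, not a smaller one. Egr2 was again apart, at 0.34 and 0.35.

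**Figure D3:**
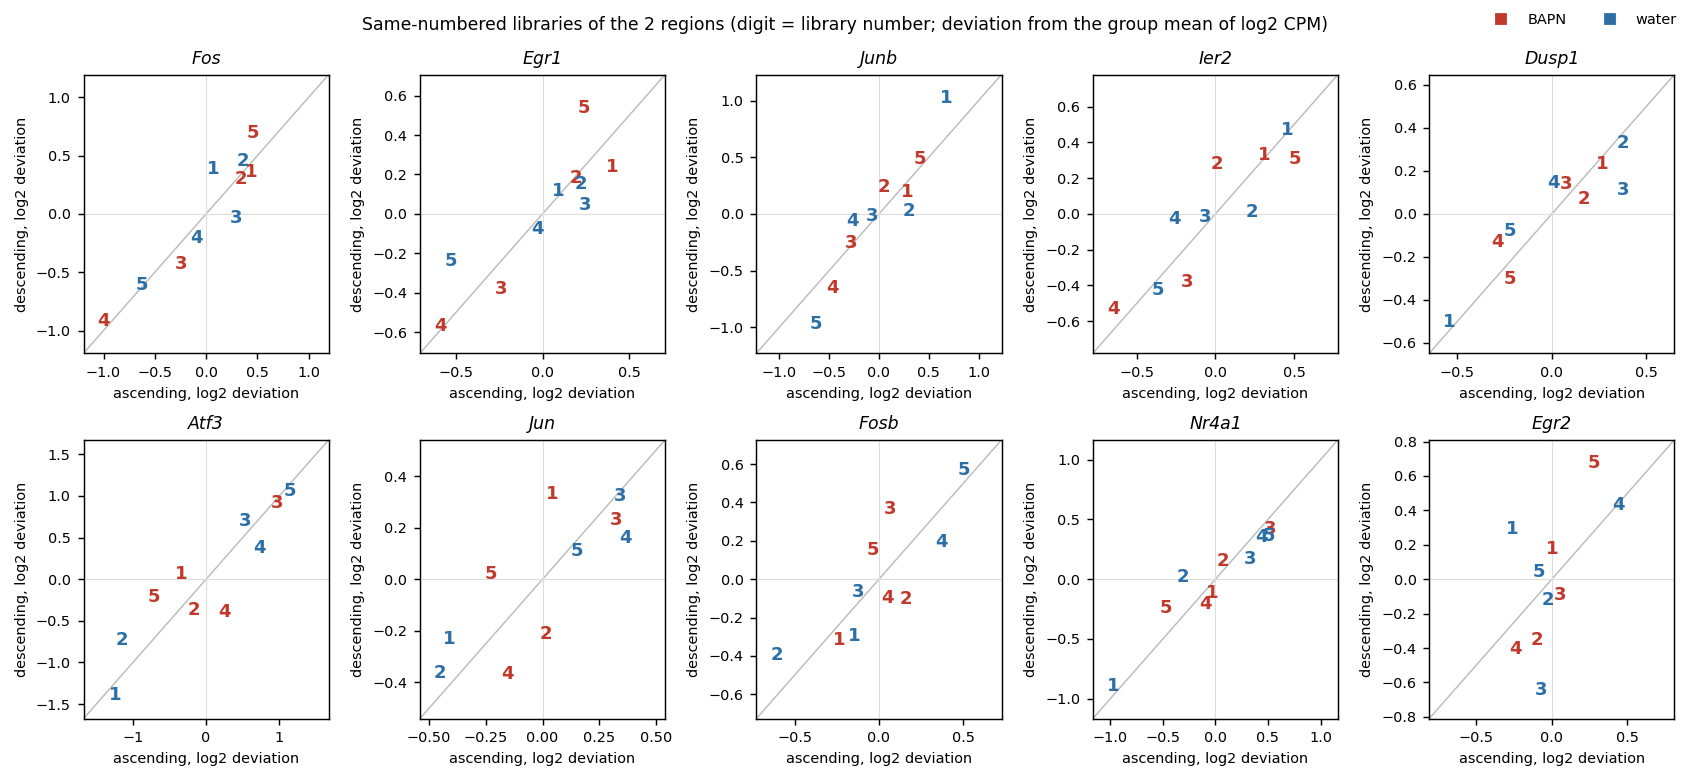
Deviation of each library from its group mean (log2 CPM) in descending aorta (y axis) against the ascending library of the same number and treatment (x axis), with the digit giving the number, red for BAPN and blue for water, and the grey line marking equality. Points follow the line in 9 members, with r from 0.78 to 0.95, and scatter for Egr2 (r = 0.60).

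The members did not rise and fall together between libraries. Read as deviations from the group means over the 20 libraries, and grouped after these values were seen, 8 of them fell into sets that mostly ran against each other, Jun least clearly. These correlations are descriptions, since same-numbered libraries may share a source. Fos, Egr1, Junb and Ier2 went together, with r from 0.74 to 0.97 in their 6 pairs. Atf3, Jun, Fosb and Nr4a1 went together, with r from 0.52 to 0.89 in their 6 pairs. These 6 were looser with BAPN, at 0.13 to 0.83, than with water, at 0.63 to 0.91. Between the sets r was negative in 16 of 16 pairs, with a median of -0.51, and the lowest was -0.77, between Junb and Atf3. It was negative in 15 of 16 in the descending and 16 of 16 in the ascending aorta, in 12 of 16 with BAPN and 16 of 16 with water, and in 14 of 16 within the pseudogene sets. Every positive value among these was one of Jun, which with BAPN had r from 0.12 to 0.23 with the Fos set. Over the 20 libraries Jun had r = -0.11 with Fos, -0.06 with Egr1, -0.28 with Ier2 and -0.35 with Junb. Dusp1 had r from -0.26 to 0.55 with the other members, and Egr2 from -0.14 to 0.36.

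Heat shock genes ran with the Atf3 set. Hspa1a and Hspa1b, near-identical copies of the inducible HSP70 gene that are summed here because reads can be split between them, had 75.6, 79.8, 211, 194 and 452 CPM in descending water libraries 1 to 5, and 102, 99.97, 311, 343 and 648 CPM in ascending water libraries. Libraries 1 and 2 were again low and library 5 highest. With BAPN the sum was 154, 148, 231, 154 and 117 CPM in descending and 164, 189, 308, 259 and 110 CPM in ascending libraries, highest in library 3 of each. Its r over the 20 libraries was 0.95 with Atf3, 0.82 with Nr4a1, 0.80 with Fosb and 0.71 with Jun. It was -0.83 with Junb, -0.74 with Ier2, -0.65 with Fos and -0.58 with Egr1.

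A split of this kind was seen in some of the lists. Of the 41 other immediate early genes 34 had a positive r with Atf3 and 9 with Fos, where 7603 and 7680 of the 15543 genes tested did. Of the 15 heat shock genes 14 were positive with Atf3 and 1 with Fos. Their median same-number r between the regions was 0.92 for the heat shock genes and 0.71 for the other immediate early genes, beside 0.10 over all genes. Other lists were more evenly divided, with 10 of 15 MAP kinase cascade genes positive with Atf3 and 6 with Fos, 9 and 7 of 16 ERK feedback genes, 8 and 4 of 13 AP-1 and CREB/ATF partners, 7 and 4 of 10 genes of serum response factor and its partners, and 1 and 1 of the 2 EGR corepressors. The MAP kinase cascade genes had a median same-number r of 0.10, beside 0.10 over all genes, and the ERK feedback genes one of 0.35.

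**Figure D4:**
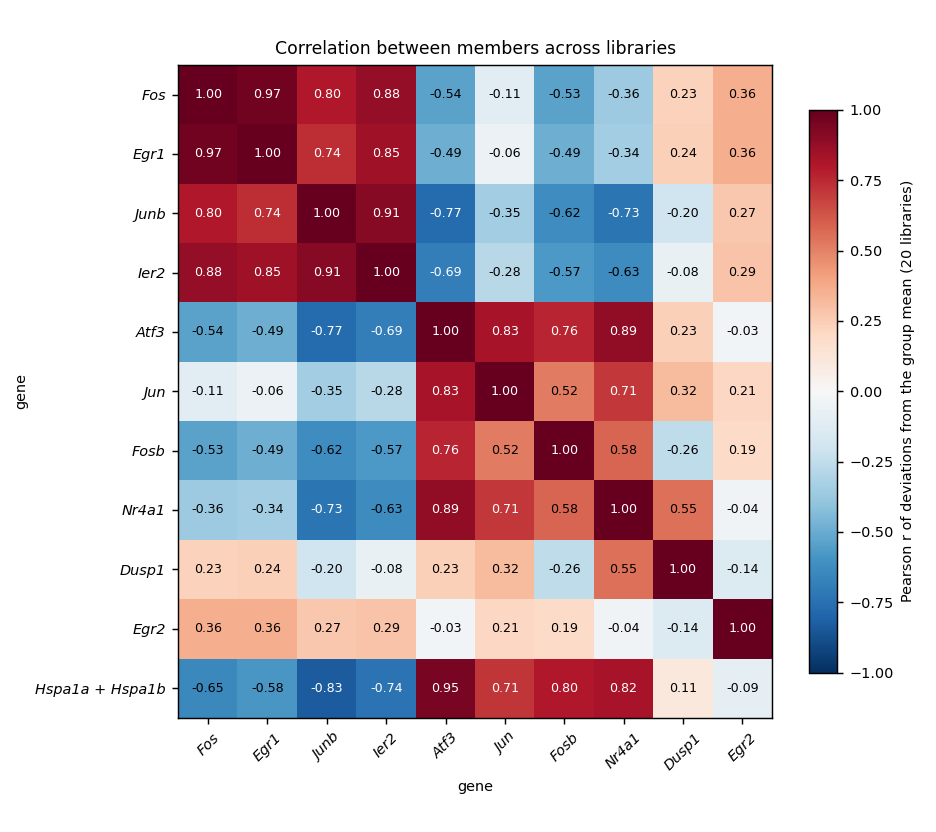
Pearson r between members, and between each member and the summed level of Hspa1a and Hspa1b (bottom row), over 20 libraries as deviations from the group mean of log2 CPM; colour runs from -1 (blue) to 1 (red). Fos, Egr1, Junb and Ier2 form a red block, Atf3, Jun, Fosb and Nr4a1 another, and the cells between the blocks are blue. The values between the blocks are weakest for Jun, at -0.11 with Fos and -0.06 with Egr1.

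The genes most like the members were named by the mean of their correlations with all 10, among genes averaging at least 5 CPM over the 20 libraries. Because the sets oppose each other this mean was low, with Atp10d at 0.36 at the top, followed by Sox13, Slc39a9, Intu, Sp110, Cyp4v3, Arsb and Tox4 down to 0.31. Taken for Fos alone, after the values were seen, the nearest 8 were Klf10 at r = 0.92, Id2, Slc50a1, Foxs1, Nr1d1, Ier5l, Smad7 and Socs1 at 0.82. Nr1d1 encodes the circadian repressor REV-ERB alpha. Taken for Atf3 alone, the nearest included Hspa1b at r = 0.95, Hspa1a, Ccn1, Dusp8, Xirp1, Abra and Dnajb1 at 0.90. Ccn1 encodes a secreted matricellular protein and Dnajb1 an HSP40 cochaperone. Each of these named genes had a negative r with Fos, from -0.73 (Abra) to -0.45 (Ccn1).

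Dusp1 varied with another measure. Its deviations had r = -0.77 with the summed cardiomyocyte markers over the 20 libraries, -0.72 in the descending and -0.88 in the ascending aorta, although the descending sums spanned only 67.8 to 83.1 CPM. Jun had r = -0.69 with the summed mitochondrial transcripts. Over the 20 libraries both were the largest in size among the correlations of members with such sums, and were picked after these were seen. For Atf3 the corresponding values were 0.01 and -0.49, and for Fos -0.37 and 0.04. Total counts of a library had r between -0.15 and 0.40 with the members. The part of these measures in the spread was not tested.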

How the data were processed

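Total RNA of ascending and descending thoracic aorta was sequenced, per the labels' protocols. The deposited values are raw read counts per Ensembl gene, 1 table for the series, which 20 of 20 per-library files equalled. The submitters' processing notes name the mm10 build, STAR 2.5, HTSeq 0.6.1 and fastp; settings and strand are not given in the sources used here. Symbols and coordinates come from GENCODE M21 on GRCm38. Of 54532 IDs, 54409 had a symbol; promoters come from RefSeq (GRCm38.p6). Region and treatment were read from titles and the treatment label.

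Counts were filtered with filterByExpr (at least 10 counts, 15543 genes kept), scaled by TMM and fitted over 20 libraries with edgeR 4.0.16 (R 4.3.3; quasi-likelihood, 1 mean per group, Benjamini-Hochberg over all genes, threshold 0.05). The fit was tested on simulated data. CPM use TMM-scaled library sizes; log2 CPM has a prior count of 2. Levels per kb use the union of exons. Same-numbered libraries were compared by an exact two-sided permutation of numbers within treatment. Pseudogene sets were split at the largest gap along the leading principal component of 33 pseudogenes of at least 2 CPM. Alternatives were other scalings (RLE, upper quartile), filters, DESeq2 1.42.0, limma-voom 3.58.1, only the groups compared, replicate blocks, batch terms and leaving out each library. Members and lists were chosen with earlier results of these data known. Members were all described. Of each list the text names genes from the 4 smallest p-values among those called. Maff, Egr3 (BAPN), Dusp14 (region, water), the correlation sets and the marker correlations of Dusp1 and Jun were picked after their values were seen. Depth was 15744725 to 23292294 counts per library, which bounds the precision. A gene that the likeness rule names is not reported here.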

Additional observations from a re-analysis of the deposited data

Results flagged for a closer look

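Within the 40 combinations of a member and a group of 5 libraries, 2 held a library whose gap to the nearest other exceeded Dixon's 95% limit of 0.71 of the group's range; chance flags about 1 in 20. Atf3 in descending BAPN library 3 was at 88.7 CPM (gap 0.748 of the range), and the ascending BAPN library of that number was also the highest of its group, at 105 CPM. Egr2 in ascending water library 4 was at 5.25 CPM (gap 0.715 of the range), and the descending water library of that number was also the highest of its group, at 2.04 CPM.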

How the results depend on the processing

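The 0 of 10 members called for BAPN in either region, and for the difference of the BAPN effects, held under every alternative run. With water, 1 member (Egr2) was called between descending and ascending aorta. The count was 2 without a filter on low counts and 2 with only the groups compared, Egr1 being added in each, and 1 to 2 when each library was left out (2 without ascending water library 5). It was 3 within the higher and 2 within the lower pseudogene set. With BAPN, 2 were called, and 1 with the set as a batch term, where Egr2 was lost (-0.58, edgeR adjusted p = 0.231). That term rests on the water libraries alone, since under BAPN the region and the set coincide. The cause was not tested. Within sets no BAPN value between regions could be had.

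The library numbers were not taken as pairs. Over all genes the same-number correlation of the regions was 0.06 to 0.11 with BAPN, where 5 of 5 libraries agreed best with their own number, and -0.05 to 0.10 with water, where 1 of 5 did. A replicate block on the number alone changed no count of members. A replicate block within treatment gave 6 of 10 members in each treatment, where the same fit called 29.6% of all genes with water and 31.6% with BAPN: Fosb and Fos higher in descending aorta (Fos 0.31 with water, 0.29 with BAPN), and Egr2, Junb, Egr1 and Nr4a1 lower (Junb -0.36 and -0.29, Egr1 -0.35 and -0.26, Nr4a1 -0.21 and -0.26).

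Counts over all genes that moved by over 1.5 times were 542 (batch term) and 344 (within the higher set) against 986 for BAPN in ascending aorta, 501 (within the lower set) against 1667 in descending aorta, 2399 (lower set) against 4243 between regions with water and 2755 (batch term) against 4626 with BAPN. For the difference of the BAPN effects they were 41 without a filter, 14 with DESeq2, 20 with the block within treatment, 16 without descending water library 4 and 1 without descending BAPN library 5, against 0. Of 510 member values under the other alternatives 1 lost its call and 14 gained one; signs changed only in values that were called on neither side. Same-number correlations stayed positive in all 100 values with 1 pair left out and in all 40 under another scaling, rank or set. Egr2's low counts limit it most.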
